A study of Mesocricetus auratus with 6 samples.

Results

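The genes described here encode the protein components of the mitochondrial ribosome, measured by RNA sequencing in BHK21 cells, a fibroblast-like line from baby hamster kidney. They were chosen by name: every gene whose golden hamster (Mesocricetus auratus) symbol begins with Mrpl or Mrps. This gave 75 of the 16078 genes in the files, 74 of them tested. The choice was made with earlier results of these data known. The series compared cells transfected with STYK1/NOK, a kinase-like membrane protein that the series calls an oncogene, with cells given the empty plasmid pCMV-Myc. There were 3 STYK1/NOK libraries (STYK1 1 to 3) and 3 empty-plasmid libraries (vector 1 to 3). RNA was harvested at 48 after transfection, with no unit given. All 6 libraries carry the labels kidney as tissue and one day as age. The labels give neither the species of the STYK1/NOK sequence nor whether replicates are separate cultures. The p-values below therefore rest on library-to-library spread alone, and this may be technical.

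Mitochondria keep their own ribosome, which translates the few mRNAs of the mitochondrial genome into membrane subunits of the respiratory chain and of ATP synthase. Its rRNAs are made inside the organelle, while all of its proteins are encoded in the nucleus, made in the cytosol and imported. Mrpl genes encode proteins of the large subunit, where peptide bonds are formed, and Mrps genes mostly those of the small subunit, where the mRNA is decoded. Some of these proteins descend from those of bacterial ribosomes, and the others were added in the mitochondrial lineage.

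The values are FPKM, fragments per transcript length and sequencing depth, so levels can be compared between genes. Depth in reads was unknown. An estimate from the most frequent log2 ratio over genes of low FPKM put depth relative to STYK1 1 between 0.979 and 1.03. This estimate could not be checked against read counts. The FPKM values summed to between 528160 and 542638 in STYK1 libraries and between 554681 and 619840 in vector libraries, with vector 1 at the top. Vector 1 stood apart: on log2(FPKM + 1) over the 11464 genes tested, its Pearson correlation with the other 5 libraries was 0.963 to 0.976, against 0.988 to 0.993 among the others. The hamster gene Styk1 was at 2.04 to 2.46 FPKM in STYK1 libraries and at 1.5 to 1.89 FPKM in vector libraries, and it did not pass the test (limma-trend, adjusted p = 0.470). Of 6 fibroblast markers in the files, Vim (3650 to 4141 FPKM), Fn1 and Pdgfrb were high, while Col1a1, Col1a2 and Thy1 did not exceed 1.02 FPKM in any library. The 5 kidney epithelial markers in the files summed to 0.63 to 1.27 FPKM in STYK1 libraries and 0.46 to 0.66 FPKM in vector libraries. Of 4 leukocyte markers, Cd68 and Cd14 were high, and the list summed to 449 to 510 FPKM in STYK1 libraries and 518 to 531 FPKM in vector libraries, but Ptprc and Adgre1 did not exceed 0.16 FPKM. The 2 endothelial markers in the files, Cdh5 and Pecam1, summed to 6.63 to 9.46 FPKM in STYK1 libraries and 4.89 to 8.58 FPKM in vector libraries. Whether any of these bear on the results was not tested.

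Nearly all mitochondrial ribosomal protein genes were measured at moderate to high level. Of the 75, 74 passed the filter (1 FPKM or more as the mean of either group), and the exception was low in both groups. That gene, Mrps36, was listed at 0.48, 0 and 0.47 FPKM in STYK1 1, 2 and 3 and at 0.47, 0.71 and 0.24 FPKM in vector 1, 2 and 3. Despite its name, the human protein has been reassigned from the mitochondrial ribosome to the 2-oxoglutarate dehydrogenase complex, under the name KGD4. The mean levels of the other 74, over 6 libraries, ran from 11.3 to 133 FPKM with a median of 51.3 FPKM, and 64 of them lay between 20 and 100 FPKM. The median over all genes tested was 15.8 FPKM, and 71 of the 74 were at or above it.

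The highest level was that of Mrpl41, a large-subunit protein of the mitochondrial lineage, with 116 to 153 FPKM over the 6 libraries. Mrpl40 (95.2 to 141 FPKM) and Mrpl42 (93.4 to 121 FPKM), both also of the mitochondrial lineage, came next, and the ranges of these 3 genes overlapped. Mrps18b, the most abundant small-subunit gene (79.4 to 135 FPKM), Mrpl23 (77.1 to 123 FPKM) and Mrpl3 (85.9 to 94.9 FPKM) followed and overlapped each other. Mrpl23 encodes a protein at the exit of the peptide tunnel and Mrpl3 one near the catalytic centre. At the low end were Mrps26 (9.26 to 15.3 FPKM), Mrps30 (11.7 to 13.4 FPKM) and Mrpl50 (9.93 to 20.01 FPKM), whose ranges overlapped. By their means, next above these lay Mrps6 (11.4 to 22.3 FPKM), Mrps31 (14.95 to 19.8 FPKM) and Mrpl13 (17.97 to 19.9 FPKM). Although named as a small-subunit gene, Mrps30 encodes a protein of the large subunit and is counted there.

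Large-subunit genes had the higher levels: the median of their mean levels was 59.2 FPKM over 50 genes, and that of small-subunit genes was 42.7 FPKM over 24 genes. The median of the large-subunit genes was the higher one in each library, by 1.42, 1.35 and 1.31 times in STYK1 1, 2 and 3 and by 1.29, 1.37 and 1.32 times in vector 1, 2 and 3. The order of the genes was much the same in every library. Spearman's rho between libraries over these 74 genes, which share gene models and lengths, was 0.960 to 0.986 for pairs without vector 1 and 0.944 to 0.963 for pairs with it.

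**Figure D1:**
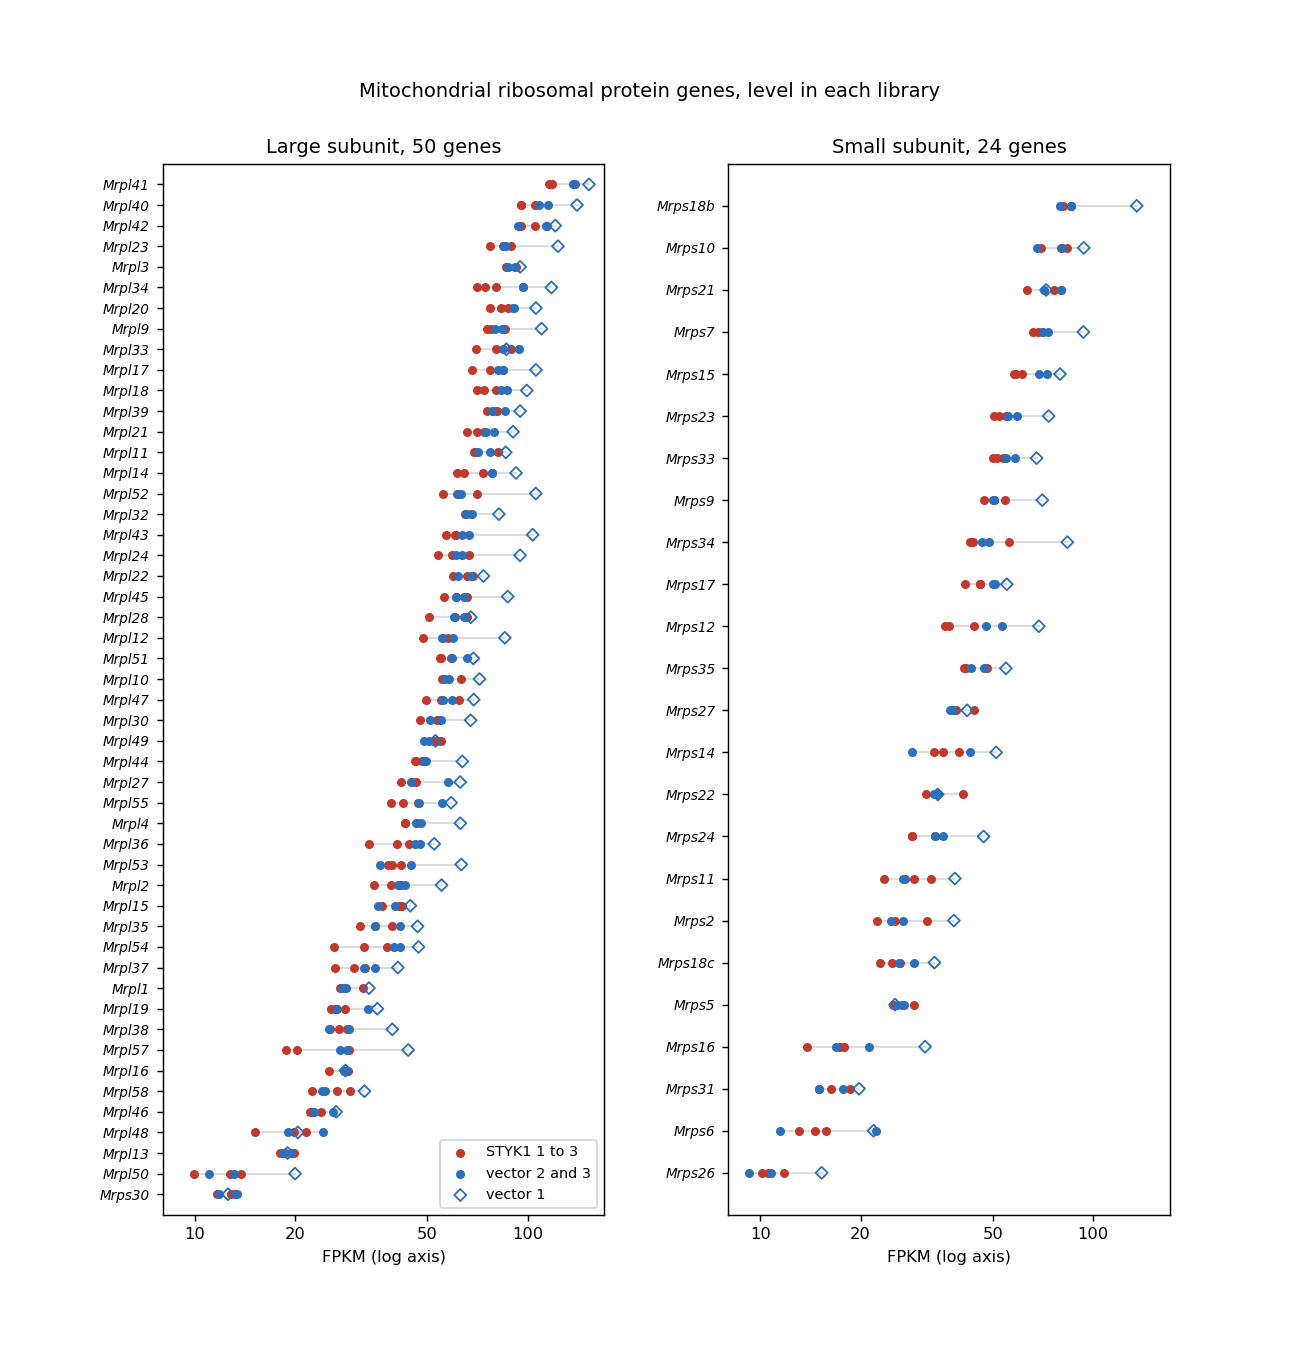
FPKM on a log axis of 74 mitochondrial ribosomal protein genes, each row a gene, ordered by mean level within the large subunit (50 genes, left) and the small subunit (24 genes, right); points are single libraries and the grey line spans all 6. The genes run from 11.3 to 133 FPKM on average, and the open diamond of vector 1 is the rightmost point for 63 of the 74.

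Between the groups, most genes had lower means in STYK1 libraries by a small amount, and none passed the test. The median log2 fold change of the 74 genes was -0.20, beside 0.01 over all genes tested, and 70 of the 74 (94.6%) were below 0, beside 47.3% of all genes. With limma-trend on log2(FPKM + 1) and adjustment over all genes, 0 of the 74 were called at an adjusted p under 0.05 (0% of 11464 genes called). Their smallest adjusted p was 0.469. At an unadjusted p under 0.05, 13 of the 74 were lower (17.6%, beside 4.88% of all genes) and 0 were higher (beside 4.95%). For 18 of the 74 (24.3%), all 3 STYK1 libraries lay below all 3 vector libraries, beside 9.44% of all genes. No member lay above in this way, beside 13.6% of all genes. In such bulk RNA, fewer cells expressing a gene and less of its RNA per cell cannot be told apart.

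Much of this rested on vector 1, which gave the highest value of the 6 libraries for 63 of the 74 genes (85.1%, beside 37.1% of all genes tested). Relative to the mean of the vector libraries, the median member lay at -0.25, -0.15 and -0.16 in STYK1 1, 2 and 3 and at 0.18, -0.13 and -0.07 in vector 1, 2 and 3, in log2 units. Vector 2 and vector 3 were thus close to STYK1 2 and STYK1 3. Without vector 1 the median log2 fold change was -0.06, with 57 of the 74 genes below 0, beside 44.4% of all genes. At an unadjusted p under 0.05, 10 were then lower (13.5%, beside 4.57% of all genes), all of them among the 13, and 0 were higher (beside 4.91%). The count of 13 became 4 without STYK1 1, 7 without STYK1 2 and 22 without vector 2. The counts over all genes in these fits are not given here, so a shift over all genes cannot be told apart from one of the members. The 18 genes whose groups did not overlap were also the only ones with all STYK1 libraries below vector 2 and vector 3, beside 11.9% of all genes. Conversely, 2 of the 74 had all STYK1 libraries above vector 2 and vector 3, beside 17.9% of all genes.

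The summed level of the 74 genes was 3571, 3720 and 3779 FPKM in STYK1 1, 2 and 3, against 4903, 3859 and 3989 FPKM in vector 1, 2 and 3. In these sums every STYK1 library was below every vector library. As a share of each library's FPKM sum, the values were 0.676%, 0.701% and 0.696% in STYK1 libraries and 0.791%, 0.696% and 0.715% in vector libraries, and the groups then overlapped. With libraries brought to the same FPKM sum, the members' median was -0.09, with 55 of the 74 below 0. The median over the whole table was 0.12 under that scaling. Relative to the median of all genes, the members' median was -0.20 with equal sums and -0.21 with no scaling. With no scaling, 568 genes over the whole table reached an unadjusted p under 0.05 with higher means in STYK1 libraries and 560 with lower means. They became 1269 higher and 216 lower with equal sums, and 402 higher and 762 lower with median centring.

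**Figure D2:**
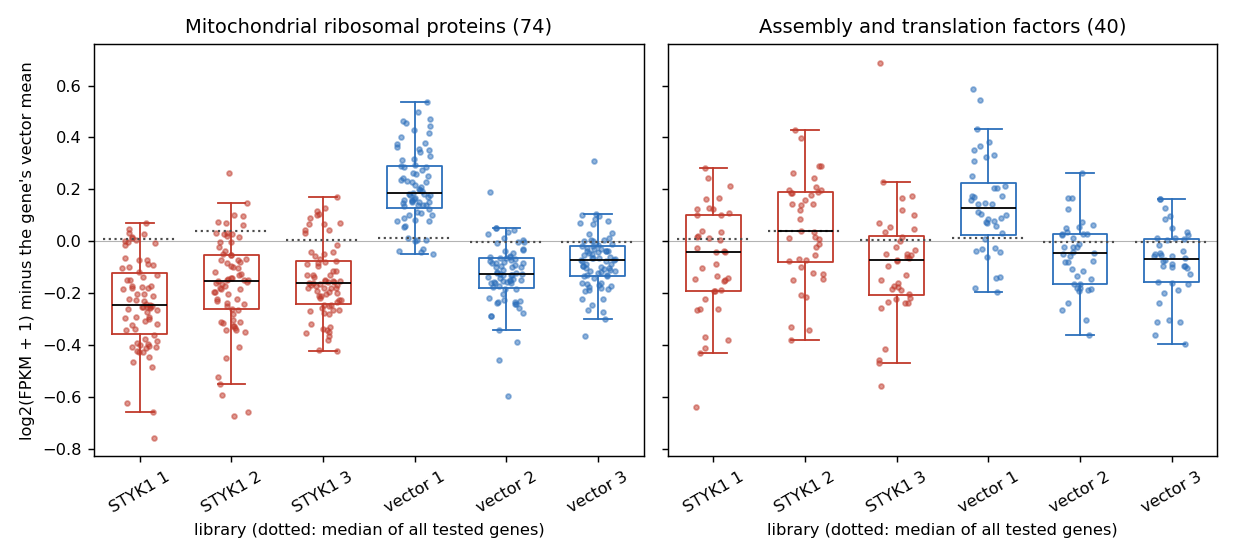
Deviation of each gene from its mean over the vector libraries, in log2(FPKM + 1), for 74 mitochondrial ribosomal protein genes (left) and 40 mitoribosome assembly and mitochondrial translation factors (right) in the 6 libraries; boxes show quartiles with the median, whiskers reach 1.5 times the box, and the dotted line is the median of all genes tested. The median member lies between -0.25 and -0.15 in STYK1 libraries, at 0.18 in vector 1 and at -0.13 and -0.07 in vector 2 and 3.

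Among proteins of the large subunit with bacterial counterparts, all 30 genes had negative fold changes (median -0.21), and 6 had an unadjusted p under 0.05 (20%, beside 4.88% of all genes lower at that p). Without vector 1, 27 of the 30 were below 0, the median was -0.09, and 5 had such a p (16.7%, beside 4.57%). Mrpl34, the counterpart of one of the smallest bacterial ribosomal proteins (Gene ID 101836680), had 74.7, 70.3 and 80.1 FPKM in STYK1 1, 2 and 3, against 118, 97.1 and 96.8 FPKM in vector 1, 2 and 3. The groups did not overlap, and vector 2 and vector 3 were alike. Its means were 75.01 ± 4.94 FPKM in STYK1 and 104 ± 12.1 FPKM in vector libraries (SD, n = 3 each), and they differed by -0.46 ± 0.10 in log2 (SE; 95% interval -0.70 to -0.22). It had the smallest p of the members, 0.00199 unadjusted, rank 20 of 11464, and did not pass (limma-trend, adjusted p = 0.469). Without vector 1 the difference was -0.37. With array quality weights, which gave vector 1 a weight of 0.129, Mrpl34 was the only member called (limma-trend, adjusted p = 0.0381), while its adjusted p under the other 15 alternatives lay between 0.334 and 0.803.

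Mrpl14 encodes a protein of the interface between the subunits, where an assembly factor holds the small subunit off in humans (Gene ID 101839562). It had 61.3, 64.6 and 73.6 FPKM in STYK1 1, 2 and 3, against 92.3, 77.9 and 78.3 FPKM in vector 1, 2 and 3, a log2 difference of -0.31 ± 0.11 (SE). Its groups did not overlap, with STYK1 3 nearest to the vector libraries. Mrpl55 (Gene ID 101829059) is counted with the central protuberance, the crest of the large subunit that faces the small one. Its values were 38.97, 46.9 and 42.3 FPKM in STYK1 libraries and 58.9, 55.1 and 47.1 FPKM in vector libraries, a difference of -0.32 ± 0.11 (SE). Here STYK1 2 and vector 3 nearly met. Mrpl36 (Gene ID 101832848), the counterpart of a small zinc-binding bacterial protein that joins late in assembly, had 40.6, 33.4 and 43.97 FPKM in STYK1 libraries and 52.4, 45.9 and 47.6 FPKM in vector libraries. Its difference was -0.31 ± 0.12 (SE), and the groups did not overlap. The unadjusted p-values of Mrpl14, Mrpl55 and Mrpl36 were 0.0174, 0.0204 and 0.0291, and none passed (limma-trend, adjusted p = 0.469 for each). Without vector 1 their differences were -0.23, -0.25 and -0.25.

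**Figure D3:**
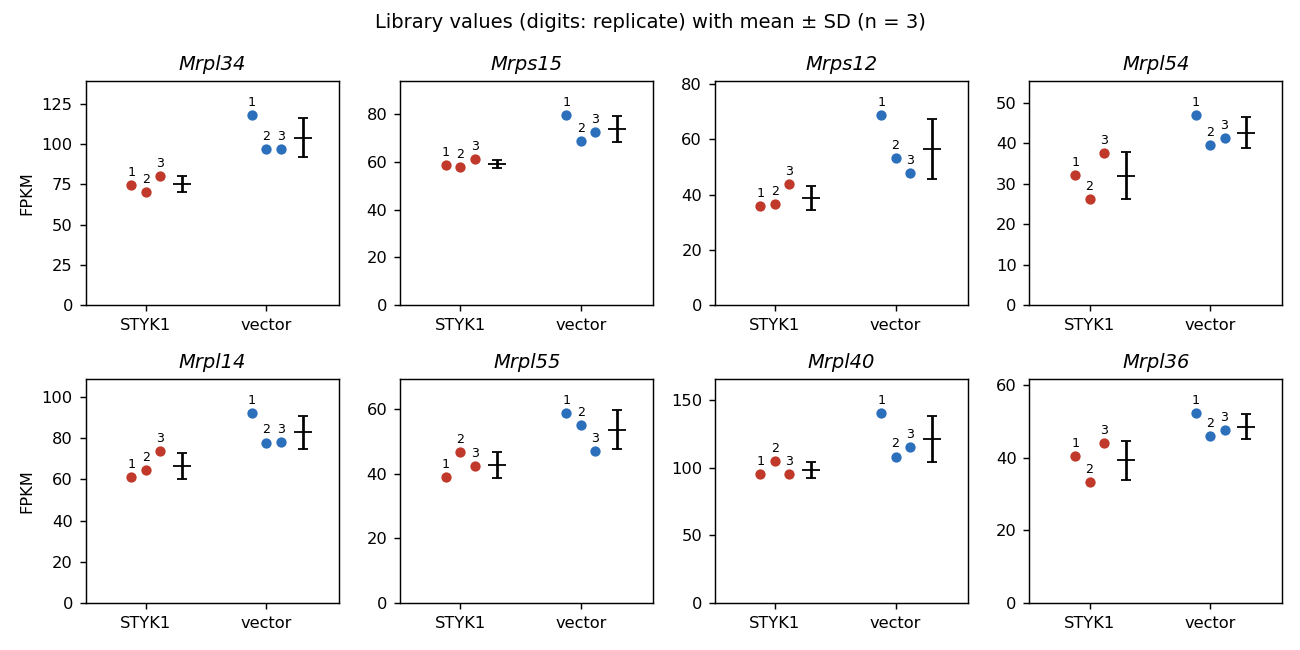
FPKM in single libraries (points, with the replicate number) and mean ± SD (n = 3) for the 8 members with the smallest p among those with lower means in STYK1 libraries; axes start at 0. In all 8 the STYK1 points lie below the vector points, most narrowly for Mrpl55, with 46.9 FPKM in STYK1 2 and 47.1 FPKM in vector 3.

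The stalk of the large subunit is the flexible arm that recruits the GTPases of translation. Its 5 genes on the list all had negative fold changes (median -0.23), and 1 had an unadjusted p under 0.05 (20%, beside 4.88% of all genes). Without vector 1, 4 of the 5 were below 0 and the median was -0.019. Mrpl12 encodes the mobile stalk protein, for which binding to the mitochondrial RNA polymerase has also been described in human cells. It had 48.5, 57.8 and 55.8 FPKM in STYK1 1, 2 and 3, against 85.4, 55.3 and 59.6 FPKM in vector 1, 2 and 3. Only vector 1 was apart from the rest, and the difference of -0.28 ± 0.16 (SE) became -0.09 without it. Mrpl10, the anchor of Mrpl12, averaged 57.96 ± 4.44 FPKM in STYK1 and 62.1 ± 8.29 FPKM in vector libraries (SD, n = 3 each). Mrpl11, of the stalk base, averaged 73.3 ± 7.14 FPKM in STYK1 and 78.1 ± 7.46 FPKM in vector libraries. Both pairs of groups overlapped, with differences of -0.09 ± 0.11 (SE) for Mrpl10 and -0.09 ± 0.11 (SE) for Mrpl11. Those of Mrpl10 and Mrpl11 were 0.01 and -0.02 without vector 1 and became positive, at 0.02 each, with equal FPKM sums.

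Mrpl53 and Mrpl54 are proteins of the mitochondrial lineage placed with the stalk. Mrpl53 had 39.1, 41.7 and 38.2 FPKM in STYK1 libraries and 63.2, 44.7 and 35.96 FPKM in vector libraries. Its vector libraries enclosed all STYK1 values, and the difference of -0.23 ± 0.18 (SE) became -0.02 without vector 1. Mrpl54 differed from it: 32.2, 26.3 and 37.7 FPKM in STYK1 libraries stood against 46.99, 39.7 and 41.3 FPKM in vector libraries. Its groups did not overlap, and the difference was -0.41 ± 0.14 (SE) with vector 1 and -0.34 without it (unadjusted p = 0.0163 and 0.0309). It did not pass (limma-trend, adjusted p = 0.469).

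All 10 genes counted with the central protuberance had negative fold changes (median -0.26), and 5 of them, Mrpl18, Mrpl27, Mrpl40, Mrpl55 and Mrpl57, had an unadjusted p under 0.05 (50%, beside 4.88% of all genes). Without vector 1 the median was -0.18 and 3 of the 5 kept such a p (30% of the 10, beside 4.57% of all genes). Mrpl40, a protein of the mitochondrial lineage in this crest (Gene ID 101832119), had 95.2, 105 and 95.3 FPKM in STYK1 1, 2 and 3, against 141, 108 and 115 FPKM in vector 1, 2 and 3. Its difference was -0.29 ± 0.11 (SE), and -0.18 without vector 1, and the groups did not overlap. Mrpl57, named here after its values were seen, had the most negative fold change of the 74 genes with all 6 libraries, -0.52 ± 0.21 (SE), and also the largest ratio of its highest to its lowest library, 2.33. It had 18.8, 20.2 and 29.1 FPKM in STYK1 libraries and 43.8, 28.7 and 27.2 FPKM in vector libraries. STYK1 3 lay above vector 2 and vector 3, and without vector 1 the difference was -0.31. Mrpl58, a peptidyl-tRNA hydrolase built into the ribosome and also named after its values were seen, showed little difference, -0.04 ± 0.14 (SE).

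The tunnel exit is where the new peptide leaves the large subunit, close to the inner membrane. None of its 6 genes on the list had an unadjusted p under 0.05. For each of the 6 the groups overlapped, all 6 fold changes were negative (median -0.20), and vector 1 was the highest library for each. Mrpl45, which in mammals tethers the ribosome to the inner membrane, had 56.2, 65.8 and 60.8 FPKM in STYK1 1, 2 and 3, against 87.1, 64.3 and 61.0 FPKM in vector 1, 2 and 3. STYK1 2 lay above vector 2 and vector 3, and STYK1 1 and STYK1 3 below both. Mrpl24 had 53.8, 66.5 and 59.4 FPKM in STYK1 libraries and 94.9, 61.1 and 63.4 FPKM in vector libraries. Mrpl23 had 77.1, 84.2 and 88.96 FPKM in STYK1 libraries and 123, 84.8 and 85.95 FPKM in vector libraries. In both, vector 1 alone was apart. Mrpl17 averaged 76.3 ± 7.95 FPKM in STYK1 and 90.6 ± 13.3 FPKM in vector libraries (SD, n = 3 each). Mrpl22 averaged 64.4 ± 4.50 FPKM in STYK1 and 67.7 ± 5.91 FPKM in vector libraries, and Mrpl47 averaged 55.5 ± 6.20 FPKM in STYK1 and 61.3 ± 6.81 FPKM in vector libraries. Over the 6 genes the median became -0.05 without vector 1. For Mrpl22 the difference, -0.07 ± 0.10 (SE), became 0.04 with equal FPKM sums.

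In the small subunit, 21 of 24 genes had negative fold changes (median -0.18), 4 had an unadjusted p under 0.05 and were lower (16.7%, beside 4.88% of all genes), and 6 had groups that did not overlap, lower in STYK1 (25%, beside 9.44%). Without vector 1, 13 of the 24 were below 0, the median was -0.03, and 3 had an unadjusted p under 0.05 (12.5%, beside 4.57% of all genes). Mrps12 (Gene ID 101843109) encodes a protein of the decoding centre, whose bacterial counterpart is known from streptomycin resistance. It had 35.9, 36.7 and 43.9 FPKM in STYK1 1, 2 and 3, against 68.7, 53.2 and 47.7 FPKM in vector 1, 2 and 3. The groups did not overlap. Its means were 38.8 ± 4.38 FPKM in STYK1 and 56.5 ± 10.8 FPKM in vector libraries (SD, n = 3 each), a difference of -0.52 ± 0.14 (SE; 95% interval -0.85 to -0.19). Without vector 1 the difference was -0.37.

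Mrps15 (Gene ID 101835715), the counterpart of a bacterial protein that binds the rRNA early in assembly, had tight values: 58.5, 57.7 and 61.2 FPKM in STYK1 libraries and 79.5, 68.7 and 72.5 FPKM in vector libraries. The lowest vector library lay above the highest STYK1 library by several FPKM, and the difference was -0.31 ± 0.09 (SE), and -0.25 without vector 1. The unadjusted p was 0.00662 for Mrps12 and 0.00647 for Mrps15, and neither passed (limma-trend, adjusted p = 0.469 for both). Mrps18b and Mrps18c are paralogs that descend from 1 bacterial protein and take different places in the small subunit. In the grouping by origin below, Mrps18b is counted with the mitochondrial lineage and Mrps18c with the bacterial counterparts. Mrps18b had 81.4, 85.98 and 85.6 FPKM in STYK1 libraries and 135, 79.4 and 85.5 FPKM in vector libraries. Except for vector 1, the libraries were alike, and the difference of -0.20 ± 0.18 (SE) became 0.03 without it. Mrps18c had 24.9, 22.9 and 26.2 FPKM in STYK1 libraries and 33.3, 26.2 and 29.0 FPKM in vector libraries, a difference of -0.24 ± 0.11 (SE), with STYK1 3 just above vector 2. The third paralog, Mrps18a, is not analysed here, nor are Mrps25 and Mrps28.

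Only 4 of the 74 genes had a positive fold change, 3 of them in the small subunit, and none had an unadjusted p under 0.05. Mrpl49, of the large subunit, had 52.4, 53.2 and 55.1 FPKM in STYK1 1, 2 and 3, against 52.8, 50.4 and 48.95 FPKM in vector 1, 2 and 3, a difference of 0.08 ± 0.08 (SE). STYK1 1 lay below vector 1. Mrps27, which encodes an RNA-binding pentatricopeptide repeat protein, averaged 40.3 ± 3.11 FPKM in STYK1 and 38.98 ± 2.45 FPKM in vector libraries (SD, n = 3 each). Mrps22, a gene of the mitochondrial lineage mutated in human mitochondrial disease, averaged 35.3 ± 4.79 FPKM in STYK1 and 33.8 ± 0.523 FPKM in vector libraries. Mrps5 averaged 26.9 ± 1.97 FPKM in STYK1 and 26.1 ± 0.882 FPKM in vector libraries. The 95% intervals of the log2 differences were -0.10 to 0.26 for Mrpl49, -0.17 to 0.26 for Mrps27, -0.19 to 0.30 for Mrps22 and -0.17 to 0.25 for Mrps5. Mrpl49 kept its sign in all 16 alternatives (0.05 to 0.19) and was higher at an unadjusted p of 0.0388 with equal FPKM sums, where it did not pass (limma-trend, adjusted p = 0.367). The signs of the other 3 did not hold throughout: they turned negative for Mrps27 without STYK1 3, for Mrps22 and Mrps5 without STYK1 2, and for Mrps5 also with quality weights.

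The genes differed in how much they varied over the 6 libraries. The highest library exceeded the lowest 1.45 times in the median gene. This ratio was smallest for Mrpl3 (1.11), followed by Mrpl13 (1.11), and largest for Mrpl57 (2.33). Mrpl3, the high and steady gene, had 92.1, 86.7 and 85.9 FPKM in STYK1 1, 2 and 3, against 94.9, 91.7 and 87.3 FPKM in vector 1, 2 and 3. Its difference was -0.05 ± 0.08 (SE; 95% interval -0.23 to 0.13). Mrpl13 had 18.7, 17.97 and 19.9 FPKM in STYK1 libraries and 18.99, 19.5 and 18.4 FPKM in vector libraries, and the groups overlapped fully. Of the low genes, Mrps30 averaged 12.6 ± 0.821 FPKM in STYK1 and 12.6 ± 0.8001 FPKM in vector libraries (SD, n = 3 each), a difference of -0.0015 ± 0.10 (SE). Mrps26, Mrpl50 and Mrps6 were more scattered, with differences of -0.09 ± 0.17 (SE), -0.23 ± 0.21 (SE) and -0.28 ± 0.23 (SE). Without vector 1 these were 0.10 for Mrps26, -0.0017 for Mrpl50 and -0.14 for Mrps6. Mrps31 had -0.07 ± 0.13 (SE), and 0.02 without vector 1. The 37 genes with the higher mean levels and the 37 with the lower ones had median fold changes of -0.20 and -0.19, and of -0.06 and -0.07 without vector 1.

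**Figure D4:**
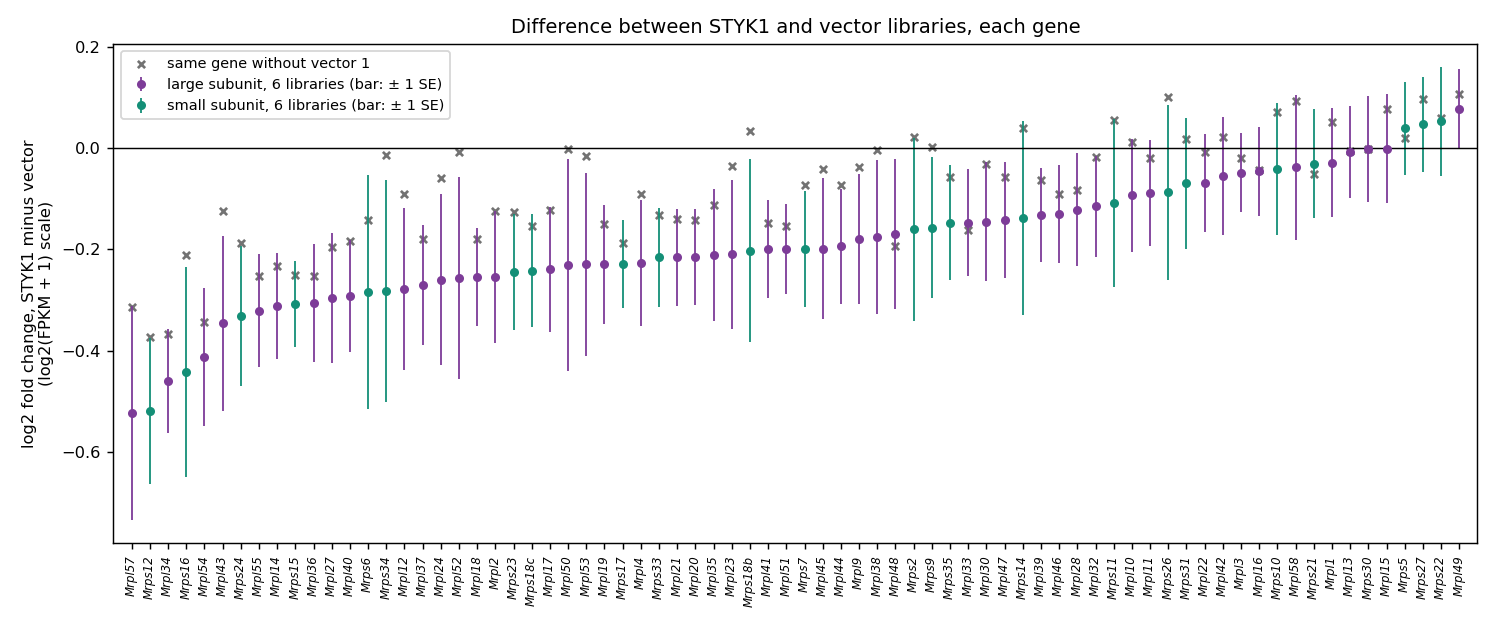
Log2 fold change (STYK1 minus vector, on log2(FPKM + 1)) of the 74 mitochondrial ribosomal protein genes, ordered by value; circles are fits on 6 libraries with ± 1 SE, coloured by subunit, and crosses are fits without vector 1. With all libraries 70 of the 74 lie below 0, and without vector 1 the crosses shift upward to a median of -0.06 with 57 below 0.

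The genes were also grouped by the origin of the proteins. The 45 genes with bacterial counterparts had a median log2 fold change of -0.21 and the 29 of the mitochondrial lineage -0.20, and 10 (22.2%) and 3 (10.3%) of them had an unadjusted p under 0.05, beside 4.88% of all genes. Without vector 1 the medians were -0.08 and -0.04. The difference between these classes was not tested.

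A further 5 proteins of the mitochondrial ribosome carry other gene symbols, and all 5 genes were measured, with a median log2 fold change of -0.20, and -0.05 without vector 1. Chchd1, a small-subunit protein of the twin cysteine motif family (Gene ID 101834583), had 28.5, 25.3 and 32.98 FPKM in STYK1 1, 2 and 3, against 42.1, 35.5 and 37.4 FPKM in vector 1, 2 and 3. Gadd45gip1, also known as CRIF1, a large-subunit protein (Gene ID 101834163), had 79.3, 85.9 and 81.9 FPKM in STYK1 libraries and 136, 98.8 and 93.7 FPKM in vector libraries. In both genes the groups did not overlap. The differences were -0.40 ± 0.12 (SE) for Chchd1 and -0.39 ± 0.14 (SE) for Gadd45gip1, and -0.33 and -0.22 without vector 1. Neither passed (limma-trend, adjusted p = 0.469 for both). Aurkaip1, a small-subunit protein, had 80.4, 81.6 and 81.4 FPKM in STYK1 libraries and 123, 76.8 and 85.9 FPKM in vector libraries, with only vector 1 apart. Dap3, a GTP-binding protein of the small subunit, averaged 14.8 ± 1.75 FPKM in STYK1 and 14.4 ± 1.32 FPKM in vector libraries (SD, n = 3 each). Ptcd3, at the mRNA entrance, averaged 52.3 ± 0.366 FPKM in STYK1 and 53.6 ± 1.52 FPKM in vector libraries. The groups of Aurkaip1, Dap3 and Ptcd3 overlapped.

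By their medians, the genes that build and serve the ribosome were lower in level and gave smaller differences, though single genes did not follow this. Of 27 listed assembly factors, 26 passed the filter, with a median level of 17.1 FPKM and a median log2 fold change of -0.07. Of these, 17 were below 0, 1 was lower at an unadjusted p under 0.05 (3.85%, beside 4.88% of all genes) and 0 were higher. Without vector 1, 14 of the 26 were below 0 and the median was -0.01. At that p, 1 of the 26 was then lower (3.85%, beside 4.57% of all genes). The 2 higher, beside 4.91% of all genes, were Mterf4 and Rpusd4, named after their values were seen. Mrm1, which methylates the large-subunit rRNA, was the lower gene in both fits. It had 1.72, 1.57 and 1.37 FPKM in STYK1 1, 2 and 3, against 2.12, 2.32 and 2.34 FPKM in vector 1, 2 and 3. Its groups did not overlap, and its difference was -0.35 ± 0.14 (SE), and -0.39 without vector 1 (limma-trend, adjusted p = 0.469 with all libraries). Tfb1m, which methylates the small-subunit rRNA, had 24.7, 26.0 and 23.9 FPKM in STYK1 libraries and 30.01, 27.9 and 27.3 FPKM in vector libraries, a difference of -0.18 ± 0.09 (SE) with no overlap. Mterf3 and Mpv17l2, both linked to ribosome assembly, had differences of -0.18 ± 0.11 (SE) and -0.42 ± 0.26 (SE), with overlapping groups, and -0.13 for each without vector 1.

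Of 18 listed translation factors, 14 passed the filter, 7 below and 7 above 0, with a median log2 fold change of 0.02 and none at an unadjusted p under 0.05. Without vector 1, 3 of the 14 were below 0 and the median was 0.09. The most abundant was the elongation factor Tufm, with 111, 113 and 110 FPKM in STYK1 1, 2 and 3, against 139, 113 and 118 FPKM in vector 1, 2 and 3. Its STYK1 2 and vector 2 nearly met, and the difference was -0.15 ± 0.09 (SE). Another elongation factor, Gfm1, had a higher mean in STYK1 libraries: 32.7, 33.5 and 34.1 FPKM in STYK1 libraries stood above 29.6, 31.9 and 29.3 FPKM in vector libraries, a difference of 0.14 ± 0.08 (SE). The initiation factor Mtif2 averaged 22.1 ± 1.72 FPKM in STYK1 and 19.4 ± 1.195 FPKM in vector libraries (SD, n = 3 each). Oxa1l, which inserts the new peptides into the inner membrane, averaged 25.2 ± 0.830 FPKM in STYK1 and 29.6 ± 4.04 FPKM in vector libraries. None of Tufm, Gfm1, Mtif2 and Oxa1l passed (limma-trend, adjusted p between 0.469 and 0.497). Over the 40 assembly and translation factors together, the median was -0.06 with 24 below 0, and 0.02 without vector 1. The mRNAs that the ribosome translates, those of the mitochondrial genome, are not analysed here.

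Among other large families, the median log2 fold change was -0.30 for 67 genes of cytosolic ribosomal proteins, and -0.16 without vector 1. The 46 genes whose symbols begin with Nduf, mostly complex I subunits, had -0.24, and -0.13 without vector 1. The mitochondrial ribosomal protein genes, at -0.20 and -0.06, lay between these and the assembly and translation factors. All 3 STYK1 libraries lay below all 3 vector libraries for 88.1% of the cytosolic and 41.3% of the Nduf genes, beside 24.3% of members. STYK1 libraries lay above for 0 and 2 genes, beside 13.6% of all genes. At an unadjusted p under 0.05 (limma-trend), 52.2% and 34.8% were lower, beside 17.6% of members. At that p, 1 and 0 genes were higher, beside 4.95% of all genes. Vector 1 was the highest library for 92.5% and 80.4%, beside 85.1% of members. Over all genes tested, the shares lying below, lower at that p and highest in vector 1 were 9.44%, 4.88% and 37.1%. These families are measured in the same 6 libraries, and the differences between them were not tested.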

How the data were processed

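Libraries were made with the Illumina TruSeq RNA kit from RNA extracted with Trizol, as the labels' protocols state. Per the file headers, the authors deposited 1 FPKM value per gene and library. The submitters' processing notes name Bowtie 0.12.2 and the mouse builds mm8 and mm9 without saying what each was used for, whereas the rows carry hamster NCBI Gene IDs. For the annotation, FPKM tool and strand setting, nothing is given in the sources used here. Reads of genes that overlap, lie antisense or have pseudogene copies may therefore be misassigned. Of 16078 IDs, 15049 matched the RefSeq gene table of BCM_Maur_2.0, used only for names.

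Each library was assigned to its group by its treatment label. The 11464 genes whose mean reached 1 FPKM in either group were tested with limma-trend (limma 3.58.1, R 4.3.3, robust, two-sided) on log2(FPKM + 1). P-values were adjusted by Benjamini and Hochberg over all genes. Fold changes on that scale understate those of low genes. The most frequent log2 ratio over genes at 0.8 to 6 FPKM gave relative depth. The scripts were tested on the deposited values with known fold changes put into the STYK1 libraries of randomly drawn genes. How many of these were recovered is not given here.

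Genes were named by rule: among members the 8 lower and 4 higher with the smallest p, the 6 highest and 6 lowest in level, and those of the stalk, tunnel exit, decoding centre and Mrps18 family. From the other lists came 4 each, by p, and all 5 ribosomal proteins with other symbols. Members and lists were chosen with earlier results of these data known. Alternatives covered the pseudocount, the filter, scaling, the robust option, quality weights, a replicate block and leaving out each library.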

Additional observations from a re-analysis of the deposited data

How the results depend on the processing

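No gene passed with all 6 libraries and no weights. With quality weights 24 genes were called, 1 of them a member, and leaving out 1 library gave 0 to 2 genes over all and 0 members. The 13 members lower at an unadjusted p under 0.05 became 5 with equal FPKM sums and 20 with median centring. Over all genes, 560 lower became 216 and 762 in the same order. The 13 became 21 with quality weights, and 4 to 22 when 1 library was left out. For these settings the share over all genes is given only without vector 1 (4.57%). With equal FPKM sums 1 member was higher at an unadjusted p under 0.05, beside 1269 of all genes, against 0 members otherwise. The members' median stayed below 0 in all 16 alternatives, between -0.26 without vector 2 and -0.06 without vector 1. The median of the assembly and translation factors changed sign with equal FPKM sums (0.05) and without vector 1 (0.02).

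The libraries share replicate numbers between groups. Deviations from the group means correlated at -0.273, -0.156 and 0.113 between same-numbered libraries for numbers 1, 2 and 3. Deviations within a group sum to 0, so these correlations depend on each other. They cannot decide whether the numbers pair the libraries. Among the STYK1 libraries, only STYK1 3 correlated best with its own number, and vector 3 correlated best with STYK1 1 (0.218). With a replicate block 0 genes and 0 members were called, and 9 members were lower at an unadjusted p under 0.05. The count over all genes at that p is not given here for this fit.

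Of 46 named genes, 30 kept their sign in all alternatives. With equal FPKM sums the sign changed for Mrpl42 (0.0565), Mrpl3 (0.062), Mrps26 (0.016), Mrps30 (0.10), Mrps31 (0.036), Mrpl13 (0.10), Mrpl10 (0.017), Mrpl11 (0.021), Mrpl22 (0.041) and Ptcd3 (0.075). With quantile normalization it changed for Mrpl42 (0.021), Mrpl3 (0.015) and Dap3 (-0.0035). With quality weights it changed for Mrps5 (-0.0064), Mrpl42 (0.12), Mrps18b (0.0090), Mrps26 (0.073), Mrps31 (0.060), Aurkaip1 (0.0032) and Dap3 (-0.0069). Leaving out 1 library gave fold changes of -0.044 to 0.048 for Mrps30, -0.051 to 0.13 for Mrps22, -0.014 to 0.087 for Mrps5, -0.16 to 0.021 for Mrpl42, -0.045 to 0.025 for Mrpl13, -0.014 to 0.10 for Mrps27, -0.044 to 0.12 for Dap3, -0.35 to 0.033 for Mrps18b, -0.23 to 0.10 for Mrps26, -0.17 to 0.019 for Mrps31 and -0.16 to 0.012 for Mrpl10. The causes were not tested. Depth in reads is unknown, so no counting error is given.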
